A study of Drosophila melanogaster with 13 samples.

Results

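The X chromosome MSL2 sites described here are the 216 peaks that the MSL2 list of males expressing full-length MLE (MLEwt) placed on the X chromosome, of 222 peaks in that list and 6400 in the 6 deposited lists together. They were chosen by their presence in that list, so the MSL2 values of MLEwt males describe the choice, and the values of the other 5 lists are what was followed at each site. A site was followed into another list when a peak of that list overlapped it by at least 1 bp. The weakest site had a fold enrichment of 1.93 over the local background and the strongest 36.1, with a median of 4.32, while the 6 peaks of the list on other sequences ran from 1.39 to 2.21.

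MSL2, MSL1 and MSL3 were each mapped by ChIP-seq in whole adult Drosophila melanogaster males aged 2 to 3 days, with 2 libraries per protein and line and 1 preimmune library of MLEwt males. Both lines were homozygous for mle9, a null allele of the endogenous gene, so the transgene supplied all MLE, from the broadly active Ubi-p63E promoter at the same landing site on chromosome 3. MLEwt males carried the full-length FLAG-tagged transgene over the TM6 balancer, while males of the other line (MLEΔCBD) were homozygous for a transgene without the CLAMP-binding region of MLE, so the copy number of the transgene and the deletion cannot be told apart. The study's immunoblot found similar amounts of the MLE protein in both genotypes, and MLE protein was not measured in the data used here. The comparison of the lines asked how far this region of MLE matters for where MSL proteins sit on the male X chromosome. Each protein and line has 1 list of peaks that passed a reproducibility filter, with no read counts and no replicate values, so the depth is unknown here, no replicate error can be given, no comparison was tested, and each interval beside a share is a 95% Wilson interval that covers the counting of peaks only.

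In male flies the MSL complex coats the single X chromosome and raises the transcription of its genes. MSL1 is the scaffold, MSL2 the male-specific subunit that reads DNA, and MSL3 a chromodomain protein found over the bodies of active genes that carry methylated histone H3. The helicase MLE remodels the non-coding roX RNAs and loads them into the complex, and the zinc finger protein CLAMP binds GA-rich DNA at the sites where the complex first lands, from which it spreads into neighbouring genes.

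The sequences around the summits are shown for the 4 strongest sites at which MSL2 was also called in MLEΔCBD males and the 4 strongest at which it was not, leaving out 1 and 5 stronger sites, respectively, whose window held an untranslated region. Each window has 201 bases of the X chromosome (dm6, plus strand, 5′ to 3′) with the summit in the middle, and capitals mark every match to GANNGAGA on either strand, a core of the GA-rich elements. In the order printed, the windows lie at chrX:3861219-3861419, chrX:16607969-16608169, chrX:11580146-11580346, chrX:13200926-13201126, chrX:18636412-18636612, chrX:1350941-1351141, chrX:13826853-13827053 and chrX:2626886-2627086. The windows of roX1 and roX2 are in exons of those RNAs and the other 6 are in introns.
roX1: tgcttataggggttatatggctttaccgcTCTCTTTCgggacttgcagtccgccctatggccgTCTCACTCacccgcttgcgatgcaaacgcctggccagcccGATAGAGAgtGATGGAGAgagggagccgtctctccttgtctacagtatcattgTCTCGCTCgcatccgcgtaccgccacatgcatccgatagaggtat
Nup153: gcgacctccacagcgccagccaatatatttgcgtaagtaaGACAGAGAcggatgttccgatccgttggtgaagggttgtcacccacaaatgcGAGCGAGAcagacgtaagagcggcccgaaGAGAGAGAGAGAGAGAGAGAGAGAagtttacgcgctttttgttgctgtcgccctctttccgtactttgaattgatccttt
roX2: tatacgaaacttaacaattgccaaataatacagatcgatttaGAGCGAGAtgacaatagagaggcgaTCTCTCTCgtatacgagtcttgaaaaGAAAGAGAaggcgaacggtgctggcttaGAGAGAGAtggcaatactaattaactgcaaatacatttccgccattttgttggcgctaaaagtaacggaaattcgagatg
sno: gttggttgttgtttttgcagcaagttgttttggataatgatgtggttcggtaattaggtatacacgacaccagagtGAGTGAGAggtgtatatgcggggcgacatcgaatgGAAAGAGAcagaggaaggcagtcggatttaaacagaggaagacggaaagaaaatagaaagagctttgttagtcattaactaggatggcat
Rip11: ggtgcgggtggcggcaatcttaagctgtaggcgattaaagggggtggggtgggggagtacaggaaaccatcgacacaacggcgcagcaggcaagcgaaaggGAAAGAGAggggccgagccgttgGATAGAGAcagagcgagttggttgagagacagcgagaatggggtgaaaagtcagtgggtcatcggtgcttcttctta
CG12773: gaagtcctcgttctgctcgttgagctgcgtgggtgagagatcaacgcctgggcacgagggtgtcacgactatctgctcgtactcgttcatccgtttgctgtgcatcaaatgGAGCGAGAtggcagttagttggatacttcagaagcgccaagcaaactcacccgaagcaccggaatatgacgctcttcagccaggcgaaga
jub: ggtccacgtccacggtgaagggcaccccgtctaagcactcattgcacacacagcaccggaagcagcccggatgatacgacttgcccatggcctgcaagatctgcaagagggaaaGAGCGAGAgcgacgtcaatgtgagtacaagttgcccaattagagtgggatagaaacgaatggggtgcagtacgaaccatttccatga
Pi4KIIIalpha: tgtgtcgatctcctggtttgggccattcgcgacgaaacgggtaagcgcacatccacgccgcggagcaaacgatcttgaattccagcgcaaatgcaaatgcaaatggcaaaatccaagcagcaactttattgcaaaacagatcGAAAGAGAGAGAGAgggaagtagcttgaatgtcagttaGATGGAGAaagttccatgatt

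All 8 windows held the core, from 1 match at CG12773 and jub to 11 at Nup153, where a run of GA repeats was 25 bases long. The 4 windows with MSL2 in both lines held 5, 11, 4 and 2 matches, and the 4 without MSL2 in MLEΔCBD males 2, 1, 1 and 4, so the ranges overlapped. The core was chosen after the data were examined. At the stronger sites left out, matches ran from 0 at hep and crm to 16 at HERC2.

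In MLEwt males the sites were shared by the 3 proteins. An MSL3 peak overlapped 216 of 216 sites and covered every MSL2 summit, and an MSL1 peak overlapped 188 (87.0%, 81.9 to 90.9%). In MLEΔCBD males 55 sites carried an MSL2 peak (25.5%, 20.1 to 31.7%), 144 an MSL1 peak (66.7%, 60.1 to 72.6%) and 183 an MSL3 peak (84.7%, 79.3 to 88.9%). MSL2 was thus called at fewer sites than MSL1, and MSL1 at fewer than MSL3.

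Over all chromosomes, the share of MLEwt peaks that overlapped a peak of the same protein in MLEΔCBD males was 25.7% for MSL2, 65.2% for MSL1 and 50.1% for MSL3. The sites make up nearly all of the MSL2 list, so its share is that of the sites. For MSL1 the like share is that of the 188 sites with an MSL1 peak in MLEwt males. Of these, 141 carried one in MLEΔCBD males (75.0%, 68.4 to 80.6%), above the 65.2% of its list. That list includes the peaks at these sites and peaks off the X chromosome, and MSL1 strength was not matched. Of the 833 MSL3 peaks of the X chromosome of MLEwt males that held no MSL2 peak, 27.6% overlapped an MSL3 peak in MLEΔCBD males, 2.4% an MSL1 peak and 0.12% an MSL2 peak. These peaks were not matched to the sites for MSL3 strength or width. The MSL3 peaks at the sites stood at a median of the top 3.60% of the MLEwt list, with a median width of 7082 bp. What MSL3 strength and width contributed to the difference in shares was not tested.

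By combination, 54 sites carried MSL1, MSL2 and MSL3 peaks in MLEΔCBD males (25.0%, 19.7 to 31.2%). The largest group, 85 sites (39.4%, 33.1 to 46.0%), carried MSL1 and MSL3 without MSL2. A further 44 carried MSL3 alone (20.4%, 15.5 to 26.2%), 28 had no peak of the 3 proteins (13.0%, 9.12 to 18.1%) and 4 carried MSL1 alone. The remaining site, in an intron of the dopamine receptor gene Dop2R, carried MSL1 and MSL2 without MSL3. MSL2 in MLEΔCBD males therefore sat with MSL1 at 55 of 55 sites. Of the 161 sites where MSL2 was not called, 89 carried MSL1 (55.3%, 47.6 to 62.7%) and 129 MSL3 (80.1%, 73.3 to 85.6%). Among the 28 sites with no MSL1 peak in MLEwt males, 3 had one in MLEΔCBD males. The calls depend on what counts as the same site and on the list lengths: with summits within 250 bp, MSL3 was matched at 42.6% of sites, MSL1 and MSL3 without MSL2 at 16.7% and no protein at 27.8%. With lists of each protein cut to equal lengths, 57.6% of the 92 sites left carried MSL2 in MLEΔCBD males and 0 had no peak.

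The site of roX1, which encodes one of the RNAs of the complex, was the strongest in MLEwt males at a fold enrichment of 36.1, and roX2 ranked 4 at 17.6. In the MSL2 list of MLEΔCBD males roX1 again ranked 1 of 92 peaks, at 17.7, and roX2 ranked 9, at 6.69. For MSL1 the fold enrichment was 25.7 at roX1 in MLEwt males and 40.7 in MLEΔCBD males, and 17.2 and 19.1 at roX2. For MSL3 it was 34.5 and 17.1 at roX1, and 17.2 and 6.88 at roX2. Both genes thus kept the 3 proteins, with a lower value for MSL2 and MSL3 and a higher one for MSL1.

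Nup153, a nuclear pore protein gene with a site in an intron (chrX:16607760-16608359), went from 18.7 to 7.18 for MSL2, from 10.7 to 13.5 for MSL1 and from 26.9 to 6.64 for MSL3. The intron of hep, a kinase gene of the JNK pathway, held the site of rank 3 (chrX:13080089-13081136), where the fold enrichment of MSL2 was 17.7 in MLEwt males and 5.99 in MLEΔCBD males. This site had no GANNGAGA match within 100 bp of its summit. Stt3A, also named CG1518 and encoding a subunit of the oligosaccharyltransferase, ranked 7 in both MSL2 lists, with a site in its 3′ UTR at 16.5 and 7.01. CG4645 ranked 33 of 222 and 34 of 92 with an intronic site at 8.24 and 3.43.

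Which sites carried MSL2 in MLEΔCBD males followed their strength in MLEwt males. When the sites were ordered by MSL2 fold enrichment and divided into 4 groups of 54, the strongest group held 44 sites with MSL2 in MLEΔCBD males, the second 11 and the others 0. MSL1 was called in MLEΔCBD males at 54, 48, 31 and 11 sites of these groups, and MSL3 at 53, 51, 44 and 35, in the same order. In MLEwt males MSL1 was called at 54, 53, 48 and 33 of them, and MSL3 at all 54 of each group. Sites with no peak at all in MLEΔCBD males numbered 0, 2, 8 and 18. MSL2 calls thus ended at stronger sites than MSL1 calls, and MSL3 was called at most of the weakest sites. The order used the MSL2 value, by whose list the sites were chosen. The MLEΔCBD lists held 92 MSL2, 577 MSL1 and 2301 MSL3 peaks, with a looser reproducibility filter for MSL2 than for the others. What list length and filter contributed was not tested, so these counts do not give an order of loss. Ordered by the −log10 p of the second peak set behind the list, a measure chosen after the data were examined that may not come from a separate replicate, the counts were 46, 9, 0 and 0 for MSL2, 54, 48, 28 and 14 for MSL1, and 53, 49, 42 and 39 for MSL3.

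**Figure D1:**
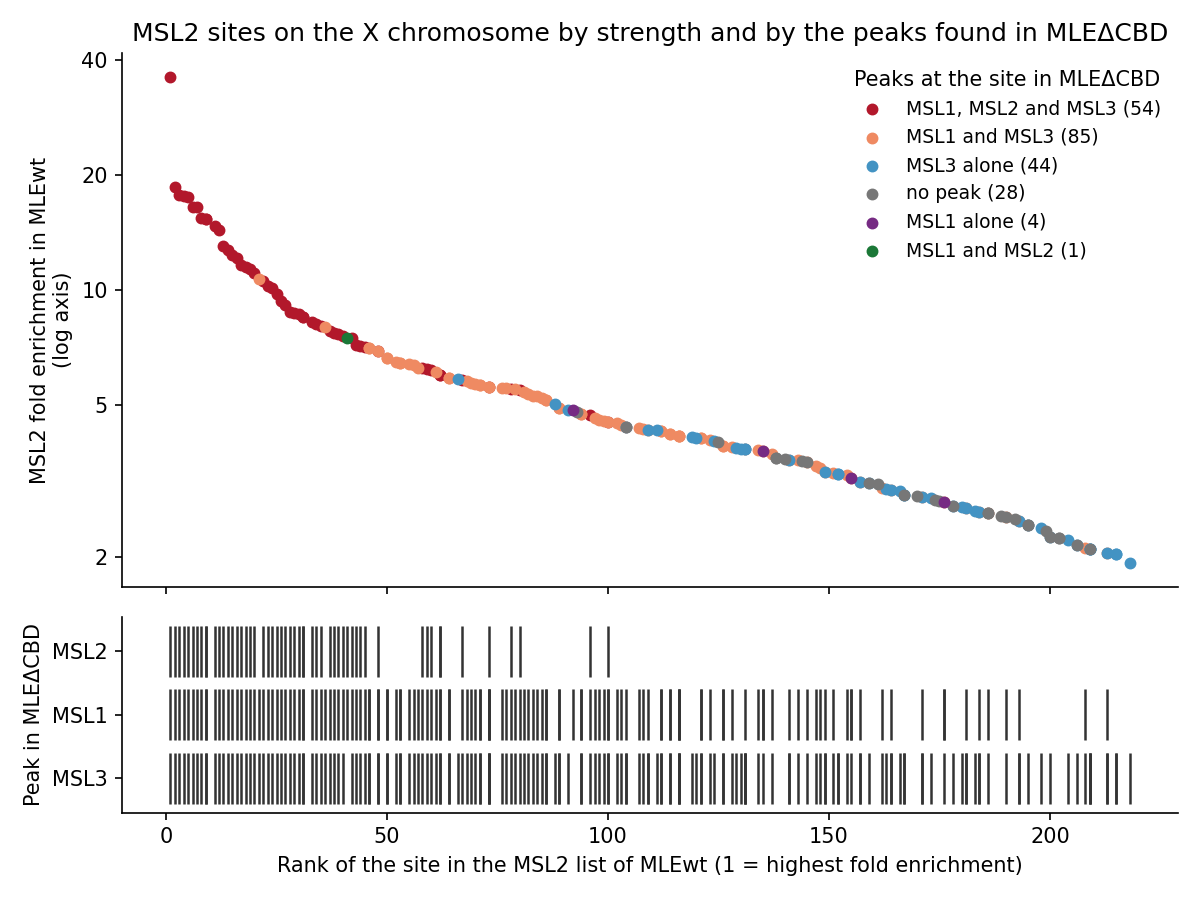
MSL2 fold enrichment (log axis) of the 216 sites in MLEwt males against their rank, coloured by the peaks found at the site in MLEΔCBD males, with a tick in the lower panel for each site carrying an MSL2, MSL1 or MSL3 peak there. The 55 MSL2 ticks end at rank 100, while MSL1 and MSL3 ticks run on into the weakest sites.

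The boundary between both classes was not sharp. The weakest sites with MSL2 in both lines lay in the 3′ UTR of Ran, the GTPase of nuclear transport (rank 80, 5.47), in the 3′ UTR of pira (rank 96, 4.70) and in an intron of Ppt1, a palmitoyl-protein thioesterase gene (rank 100, 4.52). The strongest sites without MSL2 in MLEΔCBD males lay in the 3′ UTR of HERC2, a ubiquitin ligase gene (rank 21, 10.7), in an intron of Rip11, a Rab11 effector gene (rank 36, 8.00), and at rank 46 in the 3′ UTR of crm, a Polycomb group gene, and the 5′ UTR of Rab35, both at 7.06. All 4 of these strong sites carried MSL1 and MSL3 in MLEΔCBD males. At HERC2 (chrX:20409854-20412082) MSL1 went from 8.72 to 5.84 and MSL3 from 20.6 to 4.99. Within 100 bp of its summit the site held 16 matches to the core.

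At the sites that kept a peak, the fold enrichment of the 3 proteins moved differently between the lists. MSL2 was lower in MLEΔCBD males at 55 of 55 sites, with a median ratio of 0.386 and a full range from 0.230 to 0.531, from a median of 8.71 to 3.12. MSL3 was lower at 183 of 183 sites, with a median ratio of 0.301 and a full range from 0.0971 to 0.853, from 18.1 to 5.30. MSL1 was higher at 79 and lower at 62 of 141 sites, with medians of 4.54 and 4.50. Among the 55 sites with MSL2 in both lines, MSL1 was higher in MLEΔCBD males at 46, with a median ratio of 1.21. At the 86 without MSL2 it was higher at 33, with a median ratio of 0.959. Fold enrichment is relative to the background of each immunoprecipitation, whose efficiency is unknown here and was not tested, so these ratios compare lists. The MLEwt values of MSL2 came from the list by which the sites were chosen. The paired peak sets behind each MSL2 list were also uneven. The −log10 p of the second over the first had a median of 0.502 in MLEwt and 0.705 in MLEΔCBD males. In the MSL1 and MSL3 lists this median lay between 0.989 and 1.01. At the sites the MLEwt fold enrichment of MSL2 followed the first set more closely. What this unevenness contributed to the MSL2 ratio was not tested.

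The peaks at the sites were also narrower. An MSL2 site had a median width of 858 bp in MLEwt males where MSL2 was kept, and 351 bp in MLEΔCBD males. The ratio of widths had a median of 0.429, 55 of 55 peaks were narrower and 35 were under 50% of the former width. The summits stayed in place: the 55 pairs lay a median of 10 bp apart and at most 70 bp. The ends of the range were Ran, whose MSL2 peak went from 1625 to 187 bp, and an intergenic site at chrX:19640801-19642760, from 1960 to 388 bp. The other end was held by hep, from 1048 to 893 bp, and by hiw, a ubiquitin ligase gene of synapse growth, from 914 to 845 bp. Widths of the second peak set, an addition made after the data were examined and under the same limit, gave a median ratio of 0.456 with 55 of 55 narrower. Within a line, the widths of the second over the first set at these sites had medians of 0.908 in MLEwt and 0.956 in MLEΔCBD males.

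MSL3 peaks narrowed as much and MSL1 peaks little. The summed MSL3 width at a site had a median ratio of 0.389, and 183 of 183 sites were narrower. The ratio was 0.511 where MSL2 was kept and 0.340 where it was not. For MSL1 the median ratio was 0.894 and 102 of 141 sites were narrower, with 0.965 where MSL2 was kept and 0.856 where it was not. At roX2 the MSL1 peak widened from 1509 to 3006 bp while MSL2 went from 1262 to 363 bp and MSL3 from 8399 to 6646 bp. At Nup153 the MSL3 peak over the site was 17151 bp wide in MLEwt and 1821 bp in MLEΔCBD males, with MSL1 at 866 and 815 bp. Other MSL3 peaks lay beside it there, so that MSL3 covered 10001 and 8267 bp of the bases within 5 kb of the summit. A narrower peak thus need not mean that as much cover was lost: over the 183 sites the cover within 5 kb had a median ratio of 0.622, beside 0.389 for the width.

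**Figure D2:**
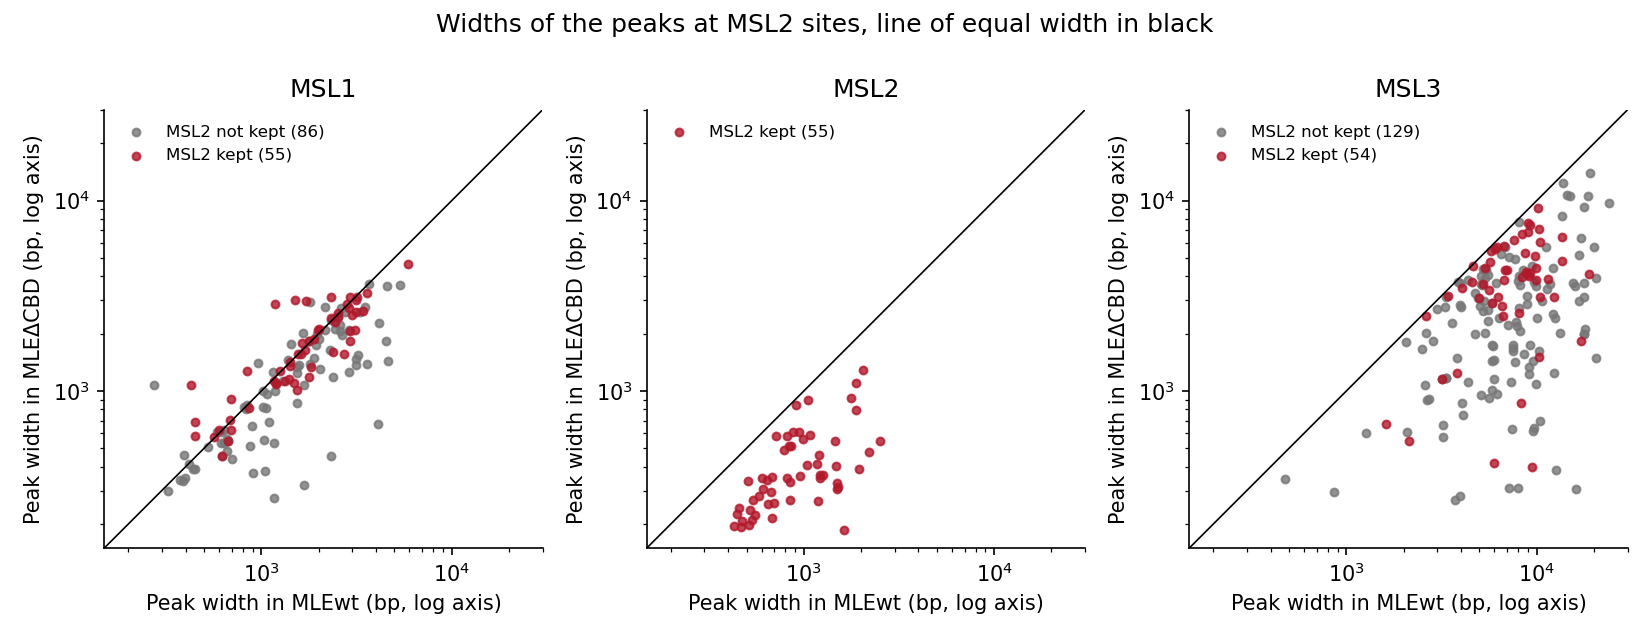
Width in bp of the MSL1, MSL2 and MSL3 peaks at each site in MLEΔCBD males against MLEwt males, on log axes, with red points for sites where MSL2 was called in both lines, grey for the others and a black line of equal width. All 55 MSL2 and 183 MSL3 points lie below the line, while the MSL1 points scatter around it, 102 of 141 below.

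MSL3 cover around the sites was lower in MLEΔCBD males, more so on the flanks than at the summit. In MLEwt males 100% of the summits lay in an MSL3 peak, and 52.3% and 50.9% of the positions 5 kb before and after them. In MLEΔCBD males these shares were 84.3%, 21.8% and 17.6%. At 2 kb before the summit the share went from 81.9 to 46.8%. For MSL1, 27.3% and 31.9% of the positions 1 kb before and after the summit lay in a peak in MLEwt males, and 19% and 19.4% in MLEΔCBD males. Within 5 kb of a summit the median length covered by MSL3 was 7464 bp in MLEwt and 4314 bp in MLEΔCBD males. It went from 7951 to 5306 bp at the sites with MSL2 in both lines and from 7269 to 3817 bp at the others. Over the whole X chromosome the MSL3 lists covered 15.3% and 5.44% of the bases, so the total cover was lower too. Summed over the sites, the cover within 5 kb went from 1575 to 913 kb, a smaller proportional fall than that of the chromosome.

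**Figure D3:**
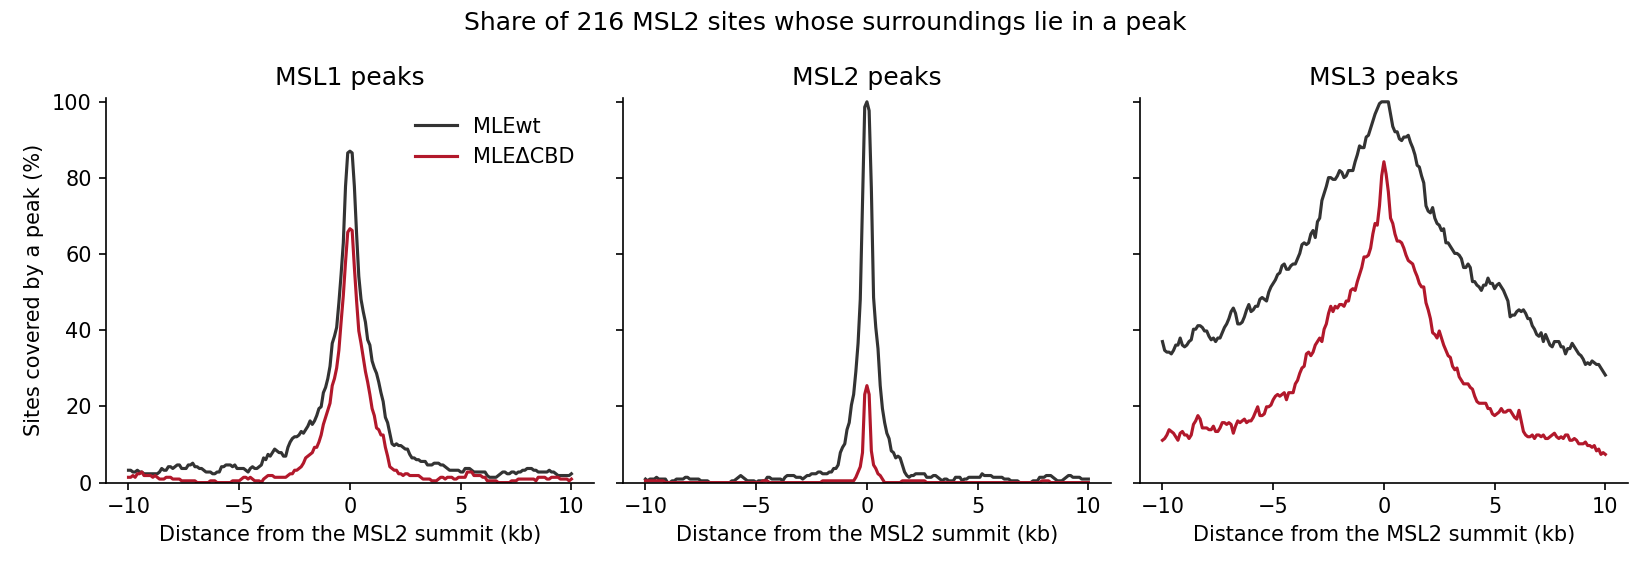
Share of the 216 sites, in percent, at which a given distance in kb from the MSL2 summit lay in an MSL1, MSL2 or MSL3 peak, with MLEwt males in black and MLEΔCBD males in red. MSL3 covered 52.3% of the positions 5 kb before the summit in MLEwt and 21.8% in MLEΔCBD males, while the drop at the summit was from 100% to 84.3%.

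MSL2 fold enrichment in MLEwt males ordered the sites in the lists of MLEΔCBD males to differing degrees. As a description across sites, which share a library, the Spearman correlation with the fold enrichment in MLEΔCBD males was 0.914 for MSL2 (55 sites), 0.823 for MSL1 (144 sites) and 0.471 for MSL3 (183 sites). Within MLEwt males the correlation was much the same, at 0.824 for MSL1 (188 sites) and 0.453 for MSL3 (216 sites). Of the 10 strongest sites, 8 were among the 10 strongest MSL2 peaks of MLEΔCBD males. In the MSL3 lists the sites stood at a median of the top 3.05% in MLEwt males and the top 19% in MLEΔCBD males, and 181 of 183 stood lower in the second list. In the MSL1 lists the median place of the 141 sites with a peak in both lines was 28.0% and 28.4%, and 85 stood lower and 56 higher. The lists differ in length, with 293 and 577 MSL1 peaks and 2915 and 2301 MSL3 peaks in MLEwt and MLEΔCBD males, so these places describe each list and are not a measure of change.

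Most summits lay in genes, and many at gene ends. A summit was inside a gene at 203 sites (94.0%, 90.0 to 96.4%), in 190 host genes. Introns held 83 summits (38.4%, 32.2 to 45.1%), 3′ UTRs 74 (34.3%, 28.3 to 40.8%), coding exons 26 (12%, 8.35 to 17.1%), 5′ UTRs 14, exons of non-coding RNAs 6 and intergenic sequence 13. Of all X chromosome bases, 46.7% are intronic, 6.35% in 3′ UTRs, 16.7% in coding exons and 25.4% intergenic. Of the 833 MSL3 peaks without MSL2, 75.0% had the summit in a coding exon, 3.84% in a 3′ UTR and 8.04% in an intron. The MSL2 sites thus stood in introns and 3′ UTRs where the other MSL3 peaks of the X chromosome stood in coding exons. Along the host gene, which was divided into 4 equal parts from start to end, 95 of 203 summits were in the last part, 51 in the third, 25 in the second and 32 in the first. A transcription start lay within 200 bp of 18 summits (8.33%, 5.34 to 12.8%), beside 11.2% of the other MSL3 peaks. Reading overlapping transcripts as intron first raised the intron share to 47.7%.

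**Figure D4:**
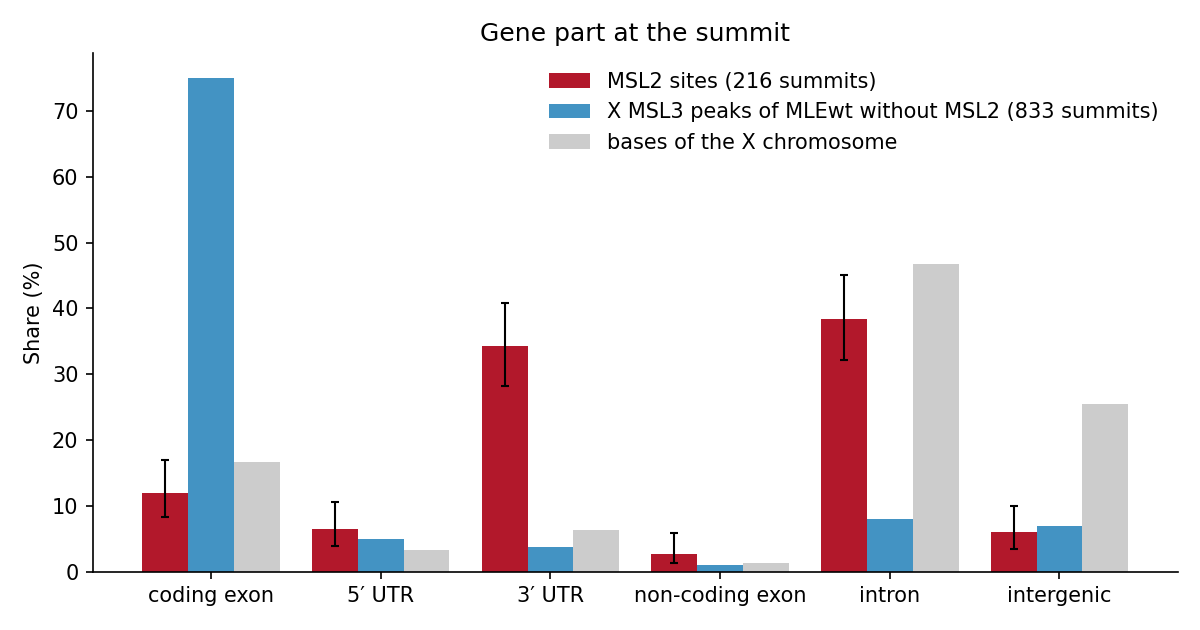
Share in percent of the 216 MSL2 summits (red, with 95% Wilson intervals), of the summits of 833 MSL3 peaks of the X chromosome without MSL2 (blue) and of X chromosome bases (grey) in each part of a gene. The 3′ UTR holds 34.3% of the MSL2 summits, 3.84% of the other MSL3 summits and 6.35% of the bases.

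The gene part went with what was called in MLEΔCBD males. MSL2 was called at 28 of 83 intronic sites (33.7%), 16 of 74 in 3′ UTRs (21.6%) and 3 of 26 in coding exons (11.5%). The 26 sites in coding exons kept MSL3 in 26 of 26 cases. MSL1 was called at 12 of these sites in MLEΔCBD males, and 14 of them carried MSL3 alone. Sites without MSL1 in MLEwt males were not counted by gene part, so a missing MSL1 peak need not be a lost one. They were weak for MSL2, with a median fold enrichment of 3.07 beside 4.58 in 3′ UTRs and 5.21 in introns. Of the 28 sites with no peak, 15 were in 3′ UTRs, 10 in introns and 0 in coding exons. Below the median MSL2 fold enrichment of the sites, MSL3 was called at 20 of 20 sites in coding exons, 19 of 33 in 3′ UTRs and 23 of 35 in introns. MSL1 was called at 6, 9 and 19 of these, in the same order, and MSL2 at 0 of each. At or above the median, MSL2 was called at 3 of 6 sites in coding exons, 16 of 41 in 3′ UTRs and 28 of 48 in introns, and MSL1 and MSL3 at 95.1% or more of the sites of each part. The low share of MSL2 in coding exons was thus not seen among the 6 stronger sites there.

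The sites with MSL3 alone and those with no peak were of like strength for MSL2, with median fold enrichments of 2.94 and 2.77, and differed in other ways. The sites with MSL3 alone had a median MSL2 width of 713 bp in MLEwt males and those with no peak 309 bp. Their MSL3 peaks had median fold enrichments of 14.2 and 10.2. In MLEwt males MSL1 was called at 34 of the 44 sites with MSL3 alone and at 13 of the 28 with no peak. The MSL2 summit lay a median of 376 bp from the MSL3 summit in the first group and 1205 bp in the second, so the sites with no peak stood farther from the MSL3 maximum. Among the sites with MSL3 alone, the strongest were in an intron of Mnr, the 3′ UTR of CG7766 and the 5′ UTR of Lsm12a, at 5.84, 5.03 and 4.86. Among those with no peak they were in the 5′ UTR of Ubi-p5E, a polyubiquitin gene, at 4.80, and in the 3′ UTRs of mnb, a protein kinase gene, at 4.37 and nej, which encodes the acetyltransferase CBP, at 4.01. Ubi-p5E was also the strongest site with no MSL1 peak in MLEwt males, followed by a coding exon of CG11122 (3.83) and the 3′ UTR of the potassium channel gene Sh (3.64). The sites with MSL1 alone were in NFAT, hep, rdgA and htk.

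GA-rich sequence marked nearly all groups of sites. Within 100 bp of the summit, GANNGAGA was present on either strand at 180 of 216 sites (83.3%, 77.8 to 87.7%), beside 10.0% of all 201-bp windows of the X chromosome and 14.8% of the windows at the other MSL3 summits. The nearest match lay a median of 11.5 bp from the summit. A repeat of 4 GA units, which GANNGAGA includes, was present at 65 sites (30.1%, 24.4 to 36.5%), beside 1.54% and 3.00%. GAAAGAGA was present at 36.6% of sites and 1.81% of X windows, GAGCGAGA at 31.9% and 1.12%, and GACAGAGA at 18.5% and 0.813%, each sought on either strand. One or more of GAGAGAGA and these 3 was present at 74.5% of sites and 4.40% of windows. The core GANNGAGA and these 8-mers were chosen after the data were examined, the 8-mers being those among the 10 most common in the windows that match the core.

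The core was common at sites with and without MSL2 in MLEΔCBD males. At least 1 match was present at 49 of 55 sites that kept MSL2 (89.1%, 78.2 to 94.9%) and at 131 of 161 others (81.4%, 74.6 to 86.6%), whose intervals overlapped. MSL2 was kept at 6 of 36 sites with no match, 11 of 69 with 1, 12 of 38 with 2, 6 of 20 with 3 and 20 of 53 with 4 or more, so the share did not rise with each added match. Divided after these counts were seen, it was kept at 17 of 105 sites with 0 or 1 match (16.2%, 10.4 to 24.4%) and 38 of 111 with 2 or more (34.2%, 26.1 to 43.5%). These intervals did not overlap, but the division was chosen from the counts. The sites with more matches were also stronger for MSL2 in MLEwt males, with median fold enrichments of 3.60 and 4.86. Among the sites at or above the median fold enrichment MSL2 was kept at 17 of 45 (37.8%, 25.1 to 52.4%) and 38 of 63 (60.3%, 48.0 to 71.5%), intervals that overlapped. Of the single 8-mers, GACAGAGA was present at 29.1% of sites that kept MSL2 (18.8 to 42.1%) and 14.9% of the others (10.2 to 21.2%), intervals that overlapped. Overlap of intervals does not show that shares are alike, and no difference was tested. The core was present at 26 of 28 sites with no peak (92.9%, 77.4 to 98.0%), and least often at those with MSL3 alone (72.7%, 58.2 to 83.7%). The longest GA run, 29 bases, was at the 3′ UTR site of CanA-14F, a calcineurin gene, at which no peak was called in MLEΔCBD males. Runs of 25 bases included those at Nup153 and at the site shared by Atg5 and CG1677, which both kept the 3 proteins. By gene part, the core was present at 95.9% of sites in 3′ UTRs, 84.3% in introns and 42.3% in coding exons, and at 7 of 20 weaker sites in coding exons beside 33 of 33 in 3′ UTRs.

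**Figure D5:**
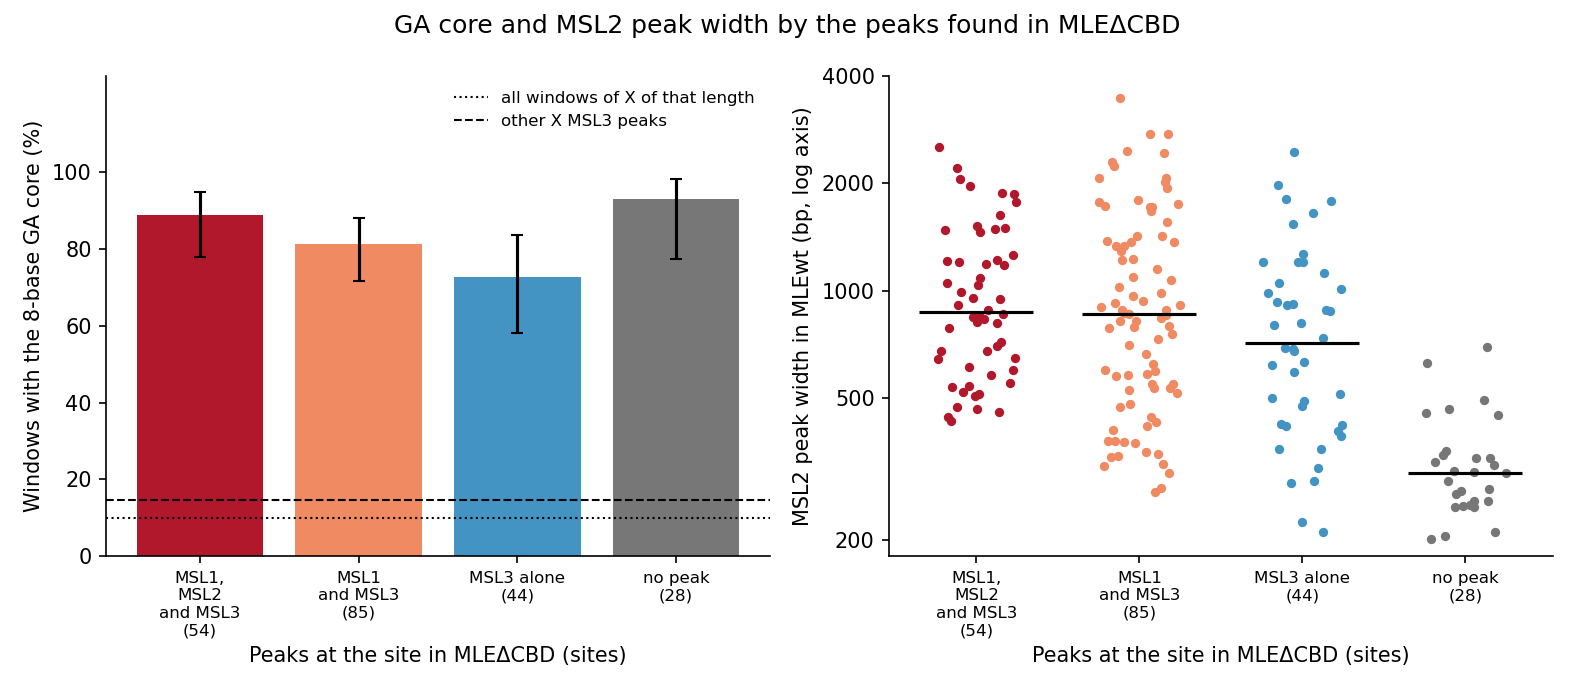
Left, share in percent of sites with the GA core within 100 bp of the summit (95% Wilson intervals) by the peaks found in MLEΔCBD males, with lines for all windows of the X chromosome and for other MSL3 summits; right, MSL2 peak width in bp in MLEwt males on a log axis, with the median as a bar. Sites with no peak in MLEΔCBD males have the core in 92.9% of cases and a median width of 309 bp.

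The sites were spread along the whole chromosome. Every one of 24 bins of 1 Mb held between 2 and 15 sites, with a median of 9.5, and 22 bins held a site that kept MSL2. Neighbouring summits lay a median of 71429 bp apart, from 596 to 1136230 bp. The closest pairs were Paics and pira, 596 bp apart, the pair in CG3198, 778 bp, and the pair in sw, a dynein intermediate chain gene, 780 bp. The longest gaps lay between tty and Usp2 (1136230 bp), crm and Tlk (1046439 bp), and pod1 and the site of Atg5 and CG1677 (508843 bp). Sites with MSL2 in both lines lay a median of 190307 bp from the nearest other such site, and the others 118296 bp from the nearest such site.

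MSL2 was called in MLEΔCBD males at 5 of the 43 sites within 10 kb of another site (11.6%, 5.07 to 24.5%). Of the other 173 sites, 50 carried it (28.9%, 22.7 to 36.1%), with intervals that overlapped. Among the 43, only the sites of ranks 2, 3, 48 and 50 were in the strongest group of 54 by MSL2 fold enrichment. That group held 44 sites with MSL2 in MLEΔCBD males. What strength contributed to these shares was not tested. Of 24 pairs of neighbours within 10 kb, 0 kept MSL2 at both sites, 6 at one and 18 at neither. In 5 of the 6 the site that kept MSL2 was the stronger in MLEwt males, the exception being the pair of Paics, a purine synthesis gene (5.78), and pira (4.70), where pira kept it. At dx, a gene of the Notch pathway, 3 sites fell within 1 gene: the intronic site (5.58) kept the 3 proteins, the 5′ UTR site (3.85) kept MSL3 alone, and the 3′ UTR site (2.06) carried the MSL1 and MSL3 peaks of its intronic neighbour. At nej the intronic site (5.98) kept the 3 proteins, the coding exon site (4.21) MSL1 and MSL3, and the 3′ UTR site (4.01) none. The other genes with 3 sites were nocte, with MSL1 and MSL3 at each, Trf4-1, with MSL3 alone at each, and Tomosyn, with MSL1 and MSL3 at the strongest and no peak at the other 2.

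Of the genes for the complex itself and its regulators, those on the X chromosome besides roX1 and roX2 held no site. The nearest to mof, which encodes the acetyltransferase of the complex, lay 35424 bp away, and the nearest to Sxl, the switch gene of female development, 223003 bp away. An MSL3 peak overlapped both genes in both lines.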

How the data were processed

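MSL1, MSL2 and MSL3 were mapped by ChIP-seq in adult males of both lines. The authors trimmed reads with cutadapt, aligned them to dm6 with Bowtie2, removed duplicates with Picard, called peaks with MACS2 and filtered them by the irreproducible discovery rate (IDR). The submitters' processing notes also name dm3. roX1 and roX2 summits fall in their exons in dm6, and the X chromosome of the reference used here has 23542271 bp. The deposited lists hold a fold enrichment (a ratio over background computed by the authors), −log10 p and −log10 q, and −log10 values of the local and global IDR. The deposited start, end, summit and −log10 p equal those of the first peak set of each IDR comparison, whose sets are not labelled with replicates and may be true replicates or pseudoreplicates drawn from pooled reads. At the sites the fold enrichment follows the first set (Spearman 0.99997) more than the second (0.829). The global IDR of the MSL2 lists was filtered near 0.05 and that of the MSL1 and MSL3 lists near 0.01. There were 0 per-sample columns without a sample.

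Here, peaks were matched at 1 bp, ranked by fold enrichment and annotated at the summit with Ensembl release 115 of BDGP6.54, in the order coding exon, 5′ UTR, 3′ UTR, non-coding exon, intron. Starts were converted to count from 1. Sites were named by fixed rules: the roX genes and genes the study names, the 3 strongest of each combination of peaks, the strongest and weakest by whether MSL2 was kept, the extremes of width, spacing and GA runs, genes with 3 sites, strongest sites without MSL1, and genes of the complex. The sites and lists were chosen with earlier results of these data known. Matching, motif and annotation functions were tested on simulated data, where 60 of 60 planted overlaps and 200 of 200 planted GA repeats were found. Alternatives covered overlap, thresholds, merging, list length, windows and annotation order. Tables were handled in pandas 2.3.3 and numpy 2.4.6 under python 3.11.15, intervals came from scipy 1.17.1, and figures were drawn in matplotlib 3.10.9. Coverage tracks and the preimmune library were not used here. One named site is not reported here.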

Additional observations from a re-analysis of the deposited data

How the results depend on the processing

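Of 64 alternatives to 15 results, 46 stayed within the 95% interval of the value reported and 18 did not. The cause was not tested, apart from what each alternative does by construction. When the global IDR had to be 0.001 or lower, 18.3% of 180 sites carried MSL2 in MLEΔCBD males, 58.3% carried MSL1, and the median spacing was 82747 bp, there being fewer sites. With equal list lengths, which leave the 92 strongest sites, the shares were 57.6% for MSL2, 93.5% for MSL1, 97.8% for MSL3 and 0% with no peak. With summits within 250 bp, MSL3 was matched at 42.6% of sites, MSL1 and MSL3 without MSL2 at 16.7%, and no protein at 27.8%. Wider windows raised the share of summits near a start to 17.1% (500 bp) and 29.2% (1000 bp), and counting whole peaks gave 21.8%. Intron first gave 47.7% of summits in introns. Mean spacing was 106803 bp. With 3 GA units 45.4% of sites held a repeat, with 5 units 17.1%, and GANNGAGA, chosen after the data were examined, was at 83.3%. The width ratios stayed within their intervals under every alternative run. No paired analysis was possible because the lists carry no column for a replicate, and for the same reason no replicate could be left out. The depth behind the peaks is unknown here.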

Other observations

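The MSL2 list of MLEΔCBD males held 4 peaks on the X chromosome that overlapped no site of MLEwt males. All 4 overlapped an MSL1 and an MSL3 peak of MLEΔCBD males, and 0 an MSL1 peak of MLEwt males. They lay between 83459 and 116568 bp from the nearest site. The strongest, at chrX:54242-54516 with a fold enrichment of 6.75, ranked 8 of 92 peaks, above roX2 at rank 9. A neighbour stood at chrX:52525-52808 (4.85). The third lay in a pseudogene of the 28S ribosomal RNA at chrX:23217003-23217219 (3.76), and the last at chrX:22373223-22374075 (2.13). The repeat content and mappability of these 4 regions were not tested.

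The pair of peak sets behind the MSL2 lists was uneven. The second set had the higher −log10 p at 13.1% of peaks in the MSL2 list of MLEwt males and at 19.6% in that of MLEΔCBD males, while in the MSL1 and MSL3 lists the share lay between 49.1 and 52.0%. Of the 54 strongest sites by fold enrichment, 45 were also among the 54 strongest by the second set.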
